A study of Mus musculus with 8 samples.

Results

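The testis-specific serine kinases (TSSK) are a small family of protein kinases, here *Tssk1*, *Tssk2*, *Tssk3*, *Tssk4*, *Tssk5* and *Tssk6*. The family was followed in RNA-seq of Sta-Put purified pachytene spermatocytes from *Arid1a* WT and *Arid1a* cKO mice. Members were taken by gene symbol after the Entrez identifiers of the deposited tables were matched to mouse genes. All 6 were among the 21058 genes listed, and all 6 were among the 17643 genes with enough counts to be tested. There were 4 *Arid1a* WT libraries and 4 *Arid1a* cKO libraries. The methods describe *Arid1a* cKO males as *Arid1a* fl/fl; Stra8-Cre Tg/0 and *Arid1a* WT males as *Arid1a* fl/fl or *Arid1a* fl/+ without the transgene, so both genotypes carry at least one floxed allele, on a CD1 background. Stra8-Cre is expressed in spermatogonia and excises only in the germ line, and the study describes incomplete excision, with some spermatocytes that keep ARID1A. Cells came from the pooled testes of adult males, and RNA was extracted from frozen cell pellets. The p-values therefore measure the spread between these libraries, which may be technical.

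TSSK proteins belong to the branch of the kinase tree that also holds the AMP-activated kinase relatives, and they are best known from haploid spermatids. There they act while the sperm head condenses and the flagellum is built, and loss of several members impairs male fertility in mice. Pachytene spermatocytes are meiotic cells that precede the haploid stage. ARID1A is a subunit of the BAF form of the SWI/SNF chromatin remodeller.

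The *Arid1a* WT libraries held 18308688 to 22044507 estimated counts and the *Arid1a* cKO libraries 15850961 to 21626772. The targeted gene *Arid1a* itself had 113 ± 13.8 CPM (counts scaled to TMM-adjusted library sizes, n = 4, SD) in *Arid1a* WT, against 79.7 ± 2.89 CPM (n = 4, SD) in *Arid1a* cKO, without overlap. This is a log2 fold change of -0.51, with a standard error (SE) of 0.07 and an adjusted p of 2.31e-05 (edgeR, quasi-likelihood test, Benjamini-Hochberg adjustment). Across all genes tested, 6435 were called higher in *Arid1a* cKO and 6613 lower at an adjusted p of 0.05 or less, which together is 74% of them, so a call alone sets no gene apart in this comparison. Synaptonemal complex and other pachytene markers were detected in every library.

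*Tssk1* and *Tssk2* are neighbours on chromosome 16 and the most alike members in sequence, with 78.6% identical bases over the aligned coding sequence, against 57.2% to 61.7% for the other pairs. Their coding sequences are 1095 and 1074 bases long. The coding sequences of *Tssk3*, *Tssk4*, *Tssk5* and *Tssk6* have 804, 1014, 1116 and 819 bases. The promoter windows of this pair are shown because both genes lie in tandem on the plus strand and changed by nearly the same amount. A near-equal change is not particular to the pair. The changes of *Tssk1* and *Tssk2* differed by 0.04 log2 units. Relative to *Tssk3*, on chromosome 4, *Tssk1* differed by 0.03 and *Tssk2* by -0.01. Each window runs from 250 bases before to 50 bases after the transcription start that the promoter table used here gives in GRCm38.p6, 5′ to 3′, and for *Tssk1*, *Tssk2* and *Tssk6* that start is the 5′ end of the RefSeq gene. The windows are chr16:17893953-17894252 for *Tssk1* and chr16:17898387-17898686 for *Tssk2*, both on the plus strand, and capitals mark their longest common run.
Tssk1: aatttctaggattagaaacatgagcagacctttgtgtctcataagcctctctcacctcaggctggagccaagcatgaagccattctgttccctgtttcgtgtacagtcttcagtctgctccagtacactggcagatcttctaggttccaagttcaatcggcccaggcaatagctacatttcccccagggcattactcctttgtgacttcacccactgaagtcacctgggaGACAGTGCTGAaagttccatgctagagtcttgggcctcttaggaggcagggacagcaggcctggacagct
Tssk2: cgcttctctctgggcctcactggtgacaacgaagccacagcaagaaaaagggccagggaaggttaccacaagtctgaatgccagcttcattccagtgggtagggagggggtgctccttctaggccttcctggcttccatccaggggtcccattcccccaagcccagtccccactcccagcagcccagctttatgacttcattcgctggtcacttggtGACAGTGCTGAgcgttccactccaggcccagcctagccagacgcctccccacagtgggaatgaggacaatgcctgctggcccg
The common run GACAGTGCTGA has 11 bases and begins 20 bases before the *Tssk1* start and 33 bases before the *Tssk2* start. It was found by searching this pair, and on either strand it is present in 6 of the 32851 promoter windows of the reference table, or 0.018%. The other pairs of members with windows also shared runs, of 8 to 10 bases, which 0.12% to 4.7% of all windows held. The GC content of the windows was 50.7% for *Tssk1* and 59.7% for *Tssk2*, where the median of all windows was 52.7%.

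The windows of *Tssk4* and *Tssk6*, the members with the largest and the smallest change described below, are shown for contrast. The *Tssk4* window is set on position 55650184, which is the GENCODE M21 start of the gene and lies 6533 bases inside its RefSeq span. The windows lie at chr14:55649934-55650233 and chr8:69901934-69902233, both on the plus strand, and capitals mark the CCAAT sequence in *Tssk4* and the GGGCGG sequence, on both strands, in *Tssk6*.
Tssk4: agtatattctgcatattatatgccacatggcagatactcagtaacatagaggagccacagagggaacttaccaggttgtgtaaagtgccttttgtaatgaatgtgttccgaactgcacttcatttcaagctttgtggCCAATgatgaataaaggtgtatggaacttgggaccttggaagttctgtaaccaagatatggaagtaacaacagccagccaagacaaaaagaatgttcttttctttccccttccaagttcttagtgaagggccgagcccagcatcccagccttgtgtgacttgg
Tssk6: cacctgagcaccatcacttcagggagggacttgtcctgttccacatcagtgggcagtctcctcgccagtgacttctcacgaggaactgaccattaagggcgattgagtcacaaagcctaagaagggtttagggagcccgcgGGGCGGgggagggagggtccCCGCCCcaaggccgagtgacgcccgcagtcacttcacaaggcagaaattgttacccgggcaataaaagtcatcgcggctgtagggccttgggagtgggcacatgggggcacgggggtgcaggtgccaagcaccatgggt
Among 5 short sequences searched on both strands, CCAAT was present in the windows of *Tssk3* and *Tssk4* and in 37.4% of all windows. The *Tssk3* window is set on position 129490770, which lies 960 bases inside the RefSeq span and 252 bases inside the GENCODE model, so it does not cover sequence before either 5′ end. GGGCGG was present in the window of *Tssk6* and in 35.7% of all windows. None of the 5 member windows held TGACGT, the core of the cAMP response element (7.51% of all windows), GTTGCC, an RFX half-site (12.5%), or TATAAA (13.6%). These matches describe the letters of the windows only. The table used here did not include a window for *Tssk5*.

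All 6 TSSK genes had higher transcript abundance in *Arid1a* cKO than in *Arid1a* WT pachytene fractions, by 3.45-fold to 5.36-fold, and none was lower. The authors chose these fractions under the microscope as mostly pachytene spermatocytes, so they can also hold other cells. The background is that 36.5% of all genes tested were called higher. The genotypes did not overlap at any of the 6 members, and *Arid1a* cKO lay wholly above *Arid1a* WT at 34% of all genes tested. The median log2 fold change was 2.27 over the 6 members and -0.02 over all genes tested. In these bulk samples, a change in the number of cells of a type and a change in RNA per cell cannot be told apart.

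**Figure D1:**
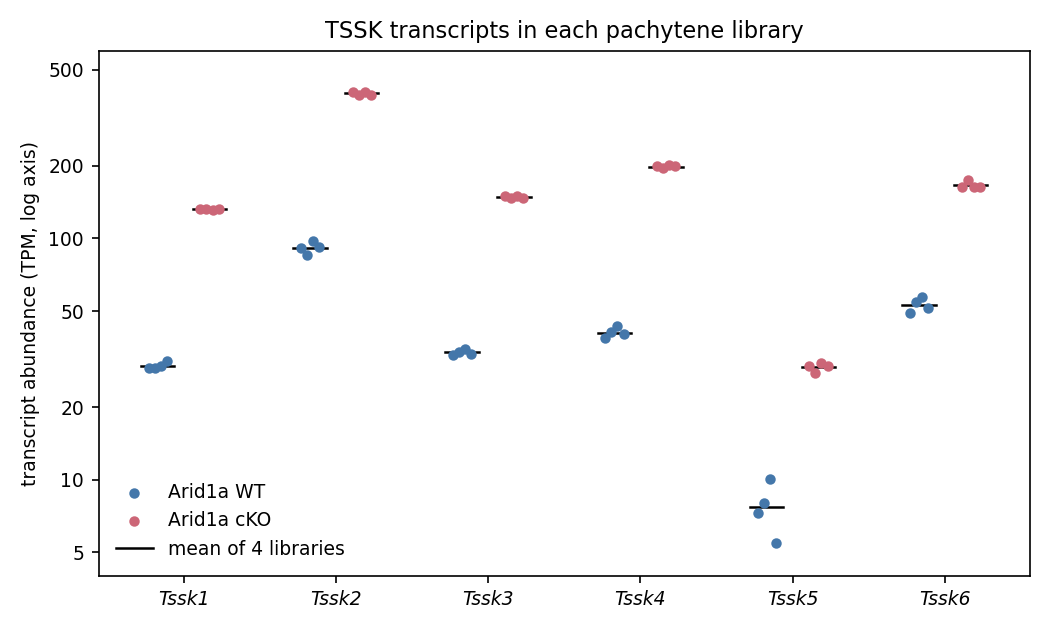
Transcript abundance of each TSSK gene in TPM (log axis) for each *Arid1a* WT and *Arid1a* cKO library, one point per library, with lines at the group means. The 4 *Arid1a* cKO points lie above the 4 *Arid1a* WT points at all 6 genes, and *Tssk5* has the lowest level in both genotypes.

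*Tssk1* (Entrez 22114) lies at chr16:17894203-17895653 and encodes a kinase that, with TSSK2, is needed for male fertility in mice. Its abundance in TPM (Salmon's level scaled by transcript length and library) was 29.1, 29, 29.5 and 30.9 in the *Arid1a* WT libraries 1 to 4 and 133, 133, 131 and 132 in the *Arid1a* cKO libraries 1 to 4. The *Arid1a* WT libraries were all low and close together, and the genotypes did not overlap. Its level in CPM rose from 73 ± 3.95 to 360 ± 6.34 (n = 4 each, SD), or by 2.30 log2 units (SE 0.05, edgeR, adjusted p = 5.40e-14). Of all genes tested, 5.01% changed upward by as much or more.

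*Tssk2* (Entrez 22115), at chr16:17898637-17900024, was the most abundant member by TPM in both genotypes. Its TPM was 91, 85.7, 97.3 and 92.3 in *Arid1a* WT and 406, 393, 404 and 395 in *Arid1a* cKO, in the order of the replicate numbers. Library 2 was the lowest of either genotype, and the gap between genotypes was far wider than the spread within them. The log2 fold change was 2.26 (SE 0.05, edgeR, adjusted p = 7.25e-14), from 78 ± 4.61 to 374 ± 9.72 CPM (n = 4 each, SD), and 5.42% of genes tested changed upward by as much or more.

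*Tssk3* (Entrez 58864), which encodes the smallest of these proteins, lies on the minus strand at chr4:129489008-129491730. *Tssk3* TPM was 33, 33.7, 34.8 and 33.2 in *Arid1a* WT and 150, 147, 150 and 147 in *Arid1a* cKO. Replicates of a genotype were nearly equal and the genotypes did not overlap. *Tssk3* rose by a log2 fold change of 2.28 (SE 0.05, edgeR, adjusted p = 4.51e-14), from 26.1 ± 0.516 to 127 ± 2.71 CPM (n = 4 each, SD).

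*Tssk4* (Entrez 71099), at chr14:55643651-55652539, encodes a kinase that acts on the flagellar protein ODF2 and on the transcription factors CREM and CREB. It had 38.5, 41.1, 43.2 and 40.1 TPM in *Arid1a* WT and 199, 195, 201 and 199 TPM in *Arid1a* cKO. This was the largest change of the family, with all *Arid1a* cKO libraries high and close together. The log2 fold change of *Tssk4* was 2.42 (SE 0.05, edgeR, adjusted p = 4.01e-14), from 31.9 ± 0.729 to 171 ± 2.9 CPM (n = 4 each, SD), reached or passed by 3.69% of genes tested.

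*Tssk5* (Entrez 73542), on the minus strand at chr15:76371958-76375191, was the least abundant member, at 7.31, 7.98, 10.1 and 5.48 TPM in *Arid1a* WT and 29.6, 27.6, 30.5 and 29.7 TPM in *Arid1a* cKO. *Arid1a* WT library 4 was the lowest and library 3 the highest, and the genotypes still did not overlap. The *Arid1a* WT libraries held 164, 189, 212 and 134 counts of this gene, and the coefficient of variation of its TPM was 24.6% in *Arid1a* WT against 4.32% in *Arid1a* cKO. The log2 fold change of 2.07 had the largest SE of the family, 0.11 (edgeR, adjusted p = 5.35e-10), and ranged from 1.96 without *Arid1a* WT library 4 to 2.20 without *Arid1a* WT library 3.

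*Tssk6* (Entrez 83984), at chr8:69902184-69903518, encodes a kinase that phosphorylates histone H2AX and is needed for the change of histones to protamines. *Tssk6* TPM was 48.9, 54.7, 57 and 51.5 in *Arid1a* WT and 164, 174, 163 and 164 in *Arid1a* cKO. *Arid1a* cKO library 2 stood above the other *Arid1a* cKO libraries, and all 4 were above *Arid1a* WT. *Tssk6* showed the smallest change, a log2 fold change of 1.79 (SE 0.05, edgeR, adjusted p = 1.73e-13), from 43.1 ± 1.39 to 149 ± 4.61 CPM (n = 4 each, SD), reached or passed by 11.4% of genes tested.

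The summed TPM of the family rose from 256 ± 10.7 in *Arid1a* WT to 1075 ± 7.32 in *Arid1a* cKO (n = 4 each, SD), a ratio of 4.19. The lowest and highest sums were 248 and 272 in *Arid1a* WT and 1067 and 1082 in *Arid1a* cKO (p = 0.0286 by a two-sided exact permutation test, which cannot give less with 4 libraries against 4). Summed as CPM, the family rose from 261 ± 7.47 to 1216 ± 20.8 (n = 4 each, SD), a ratio of 4.67. The TPM of the listed genes together summed to 780735 to 811443 in *Arid1a* WT and to 880901 to 886412 in *Arid1a* cKO libraries. Salmon scales TPM over all transcripts, listed or not, and why the sums differed between genotypes was not tested.

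By TPM, the order of the members in *Arid1a* WT was *Tssk2*, *Tssk6*, *Tssk4*, *Tssk3*, *Tssk1* and *Tssk5*. In *Arid1a* cKO it was *Tssk2*, *Tssk4*, *Tssk6*, *Tssk3*, *Tssk1* and *Tssk5*, so that *Tssk4* and *Tssk6* changed places on this scale. No neighbours in either TPM order overlapped between libraries. Over the longest GENCODE M21 transcript, which for *Tssk4* has 1686 bases, *Tssk6* stood above *Tssk4* in both genotypes, at 32.3 ± 1.04 against 18.9 ± 0.432 CPM per kilobase in *Arid1a* WT and at 112 ± 3.45 against 101 ± 1.72 in *Arid1a* cKO (n = 4 each, SD). On that scale *Tssk1*, *Tssk3* and *Tssk4* were next to each other and neighbours among them overlapped in both genotypes. *Tssk2* remained the highest and *Tssk5* the lowest. The deposited counts and TPM together imply an effective length, the length by which Salmon scales counts, averaged over the transcripts of a gene. For *Tssk4* it was 0.91 to 0.93 times that of *Tssk2*. The GENCODE ratio of 1.21 takes only the longest of 7 *Tssk4* transcripts. The order of *Tssk4* and *Tssk6* thus depends on the length used. *Tssk6* made up 20.7% ± 0.843 of the summed TSSK TPM in *Arid1a* WT but 15.5% ± 0.555 in *Arid1a* cKO (n = 4 each, SD), a difference of -5.19 percentage points. The share of *Tssk4* moved the other way, from 15.9% ± 0.308 to 18.5% ± 0.183 (n = 4 each, SD). The shares of *Tssk1*, *Tssk2* and *Tssk3* were 11.6%, 35.7% and 13.1% in *Arid1a* WT and 12.3%, 37.2% and 13.8% in *Arid1a* cKO, and that of *Tssk5* was 2.99% and 2.73%. The shares of *Tssk3*, *Tssk4* and *Tssk6* did not overlap between genotypes (two-sided exact permutation test, p = 0.0286 each), but over the 6 members none passed adjustment (adjusted p = 0.0571 for these genes). With CPM in place of TPM, 4 of the 6 shares passed at an adjusted p of 0.0429 by the same exact permutation test, those of *Tssk1*, *Tssk3*, *Tssk4* and *Tssk6*, the last with -4.31 percentage points.

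Whether members changed by different amounts was asked for all 15 pairs, as the difference in log2 CPM between the members within each library. *Tssk4* rose by 0.63 ± 0.03 log2 units more than *Tssk6* (standard error, n = 4 libraries a genotype, exact permutation p = 0.0286, adjusted p = 0.0714). *Tssk1*, *Tssk2* and *Tssk3* rose by 0.52 ± 0.06, 0.48 ± 0.06 and 0.49 ± 0.04 log2 units more than *Tssk6*, with the same p-values. *Tssk2* and *Tssk3* changed by -0.15 ± 0.04 and -0.15 ± 0.02 relative to *Tssk4*, again at p = 0.0286 and adjusted p = 0.0714 by the exact permutation test. These 6 pairs did not overlap between genotypes, but this design cannot give a smaller p and none of the 15 pairs passed adjustment. The tandem pair *Tssk1* and *Tssk2* differed in their change by 0.04 ± 0.04 log2 units (exact permutation p = 0.371, adjusted p = 0.398), and by 0.01 without *Arid1a* WT library 3 and 0.06 without *Arid1a* WT library 2. A p that misses the threshold does not show that both genes changed alike.

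The level of *Tssk1* per kilobase also depends on the length by which its counts are divided. RefSeq gives *Tssk1* a span of 1451 bases that ends 2983 bases before *Tssk2*. GENCODE M21 instead has a single exon of 3700 bases from 17894223 to 17897922, which leaves 714 bases before *Tssk2*. The effective length of *Tssk1* implied by the deposited counts and TPM was 2.87 to 2.90 times that of *Tssk2*. This is near the GENCODE ratio of 2.67 and far from the RefSeq ratio of 1.05. Counts per kilobase of *Tssk1* in *Arid1a* WT were 19.7 ± 1.07 CPM per kilobase over the GENCODE length and 50.3 ± 2.72 over the RefSeq span (n = 4, SD), against 56.2 ± 3.32 for *Tssk2* and 32.3 ± 1.04 for *Tssk6*. In *Arid1a* cKO, *Tssk1* was at 97.3 ± 1.71 or 248 ± 4.37 CPM per kilobase, and *Tssk2* at 270 ± 7. *Tssk1* was therefore below *Tssk6* over the GENCODE length. The values over the RefSeq span divide counts of the longer transcript by a shorter length. They are therefore no level under the RefSeq model and do not place *Tssk1* against *Tssk6*. The change of *Tssk1* between genotypes is the same with either length.

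**Figure D2:**
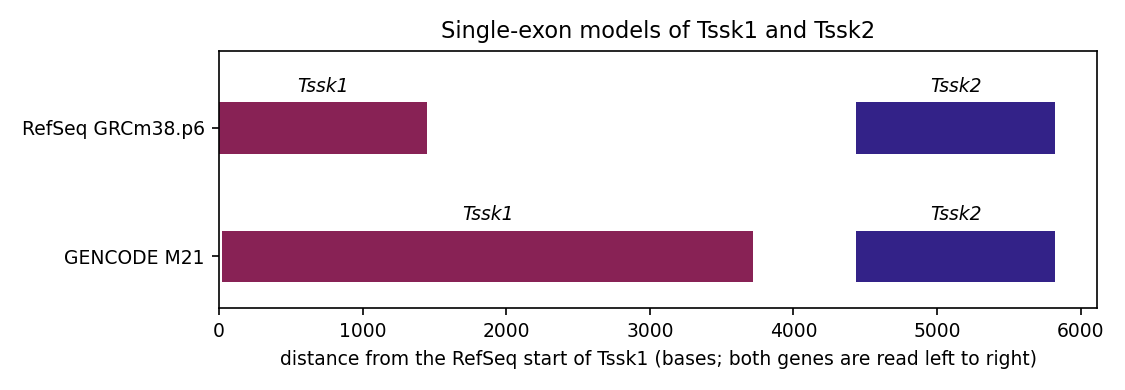
Gene models of *Tssk1* and *Tssk2* in RefSeq and GENCODE M21, drawn to scale as distance in bases from the RefSeq start of *Tssk1*. The GENCODE model of *Tssk1* is a single exon of 3700 bases and reaches to within 714 bases of *Tssk2*, where the RefSeq span has 1451 bases.

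Some reads cannot be given to one member with certainty. *Tssk1* and *Tssk2* share 170 of their 31-base words, and *Tssk1* shares a further 34 with *Dgcr2*, so that 5.56% of the words of *Tssk1* and 12.5% of those of *Tssk2* are found in another gene. Of the words of *Tssk6*, 26.4% are shared with *Ndufa13*, a subunit gene of mitochondrial complex I on the opposite strand, with which it has 375 exonic bases in common. *Tssk3*, *Tssk4* and *Tssk5* shared none. Whether counting used the strand is not given in the sources used here, so part of the *Tssk6* count could come from *Ndufa13*, which was at 51.7 ± 1.46 CPM in *Arid1a* WT and 48.6 ± 2.93 CPM in *Arid1a* cKO (n = 4 each, SD; edgeR, adjusted p = 0.157).

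The nearest protein-coding genes on each side of the members did not share one change. *Fam229a* starts 168 bases from *Tssk3* on the opposite strand, head to head in GENCODE M21, and rose from 38.1 ± 3.19 to 180 ± 3.76 CPM (n = 4 each, SD), a log2 fold change of 2.24 (SE 0.06, edgeR, adjusted p = 1.80e-13) beside 2.28 for *Tssk3*. The longer RefSeq span of *Tssk3* covers part of *Fam229a*. Next to the tandem pair, *Dgcr2* rose by 1.33 log2 units and *Ess2*, whose end lies 684 bases beyond *Tssk2*, by 0.71. The other neighbours of *Tssk3* were *Bsdc1*, which rose by 0.43, and *Marcksl1*, at -0.18. Around *Tssk4*, *Ipo4* rose by 0.45, and neither *Tm9sf1* (0.04, adjusted p = 0.618) nor *Mdp1* (-0.03, adjusted p = 0.89) was called by edgeR. *Hgh1*, 103 bases from *Tssk5*, was at -0.22 and *Mroh1* at -0.31, both called lower. Beside *Tssk6*, *Yjefn3* rose by 1.34 and *Gatad2a* by 1.16. *Fam229a* was thus the only neighbour outside the family with a change above that of *Tssk6* in this fit.

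**Figure D3:**
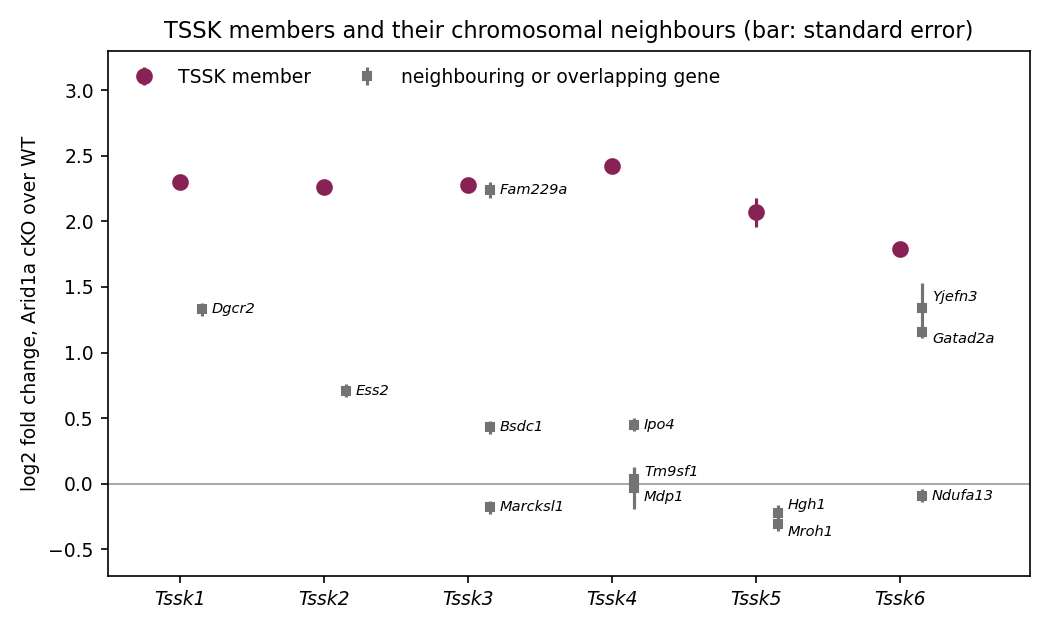
Log2 fold change (*Arid1a* cKO over *Arid1a* WT, error bars are standard errors) of each TSSK gene and of the nearest protein-coding genes beside it. The members lie between 1.79 and 2.42, and *Fam229a* next to *Tssk3* is the only other gene in that range.

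The next list held 12 genes for partners, regulators and substrates of TSSK proteins and for other proteins linked to them. Of these 12 genes, 7 rose, 3 fell and 2 were not called, where 36.5% of all genes tested were higher and 37.5% lower. Their median log2 fold change was 0.48, against -0.02 over all genes tested. *Tsks*, the substrate of TSSK1 and TSSK2 that gives the complex its place in the spermatid, had 99.6, 97.1, 104 and 97.3 CPM in *Arid1a* WT and 442, 449, 443 and 431 CPM in *Arid1a* cKO. It rose by 2.15 log2 units (SE 0.05, edgeR, adjusted p = 5.38e-14), within the range of the kinases. *Ppp1cc*, which encodes the phosphatase found with TSKS and TSSK1, rose by 0.23 (SE 0.07, edgeR, adjusted p = 0.0109), a call that limma on log2(TPM + 1) did not make (0.12, adjusted p = 0.135).

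The cochaperone gene *Tsacc*, whose product links TSSK6 to HSP90, rose by 0.73 log2 units (SE 0.07, edgeR, adjusted p = 1.31e-07), from 82.5 ± 7.9 to 137 ± 6.97 CPM (n = 4 each, SD). The HSP90 gene *Hsp90aa1* fell by 0.58 log2 units (SE 0.08, edgeR, adjusted p = 1.09e-05), and every *Arid1a* cKO library was below every *Arid1a* WT library. *Hsp90ab1* was at -0.07 (SE 0.06, edgeR, adjusted p = 0.313) and was called lower on log2(TPM + 1) by limma, at -0.21 (adjusted p = 0.00224). *Pdpk1*, the kinase that activates TSSK3, rose from 111 to 223 CPM, a log2 fold change of 1.00 (SE 0.05, edgeR, adjusted p = 7.94e-11). With offsets for transcript length, its log2 fold change was 1.54 (edgeR, adjusted p = 4.64e-11).

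*Izumo1* encodes the sperm protein that binds the egg, and the relocation of that protein in sperm needs TSSK6. *Izumo1* rose from 26.3 to 111 CPM, by 2.07 log2 units (SE 0.05, edgeR, adjusted p = 1.51e-13). Among substrates, *Odf2*, a protein of the outer dense fibres, rose by 0.95 and *Crem*, an activator of spermatid genes, by 1.08. *Creb1* fell by 0.80 (SE 0.09, edgeR, adjusted p = 1.15e-06), but with offsets for transcript length it was at -0.12 (edgeR, adjusted p = 0.309). *H2ax*, the histone target of TSSK6, fell from 50.8 to 32.4 CPM, by 0.65 log2 units (SE 0.05, edgeR, adjusted p = 1.83e-08). *Spag16*, a flagellar substrate of TSSK2, was not called (-0.07, edgeR, adjusted p = 0.435), although it was at -0.14 and called without *Arid1a* WT library 3 (edgeR, adjusted p = 0.0343). Of this list, only *Tsks* and *Izumo1* had changes above 1.79, the smallest of the kinases.

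**Figure D4:**
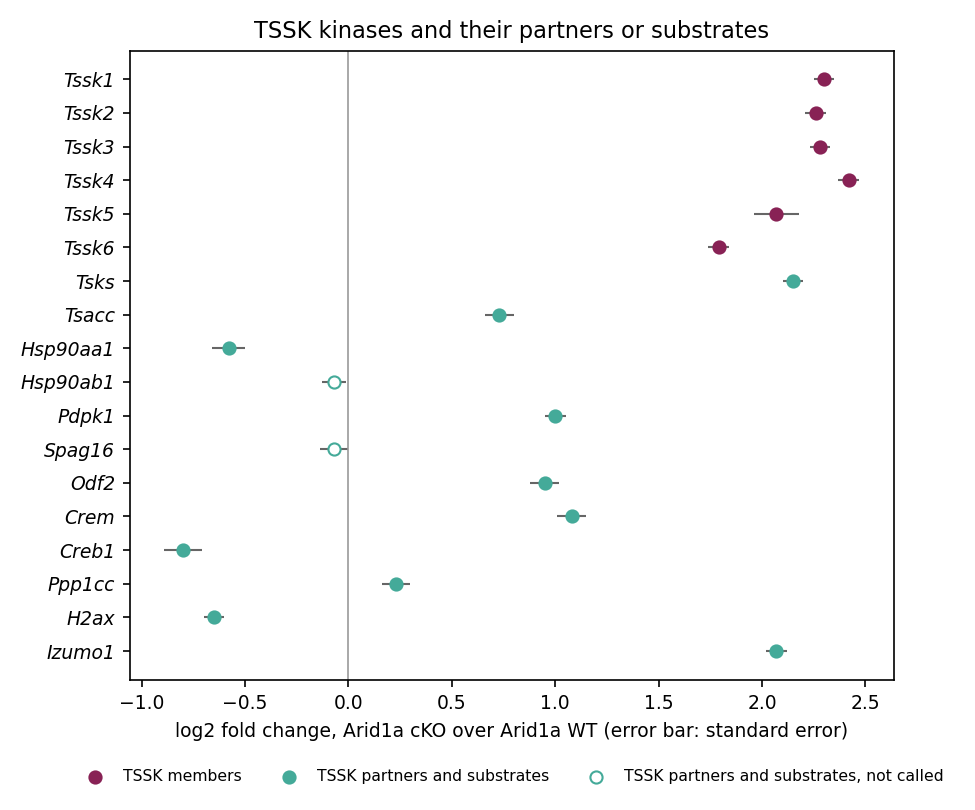
Log2 fold change (*Arid1a* cKO over *Arid1a* WT) of the 6 TSSK genes and of 12 genes for partners, regulators, substrates and other linked proteins. Bars are standard errors and open points are genes not called. The kinases, *Tsks* and *Izumo1* lie at 1.79 or above, and the other partners lie between -0.80 and 1.08.

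Of 17 AMPK-related kinase genes, 10 rose, 6 fell and 1 was not called, with a median log2 fold change of 0.38. The number called higher was 7 to 10 over the alternatives, and the weakest of the 10 calls was that of *Prkaa2* (0.60, edgeR, adjusted p = 0.0495), whose libraries overlapped between genotypes. *Mark2*, a regulator of cell polarity and microtubules, fell by 3.12 log2 units, *Melk* rose by 1.25 and *Nuak2* fell by 1.23. Of 15 other kinases of germ cells, 8 rose, 5 fell and 2 were not called, with a median of 0.15. *Camk4*, a calcium-dependent kinase known from spermatids, rose by 2.29 log2 units, and *Pbk* and *Stk31* fell by 1.99 and 1.97. Over all genes tested, 36.5% were higher and 37.5% lower, so both kinase lists held calls in both directions, as the background does.

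Markers of spermatids rose with the TSSK genes. All 11 round spermatid markers were higher in *Arid1a* cKO, with a median log2 fold change of 2.17 and a range from 0.29 for *Acr* to 2.64 for *Izumo3*, and *Spaca7* and *Lyzl1* rose by 2.38 each. Their summed level was 725 to 778 CPM in *Arid1a* WT and 2530 to 2674 CPM in *Arid1a* cKO. All 10 elongating spermatid markers were also higher, with a median of 2.16 and none above 2.24, among them *Hmgb4* (2.24), *Tnp1*, a transition protein (2.23), and *Prm3* (2.23). Their summed level went from 2108 to 2332 CPM in *Arid1a* WT to 9682 to 9942 CPM in *Arid1a* cKO. Over all genes tested, 36.5% were called higher and 37.5% lower. No marker of either list was at 0 in any library. The part of spermatids in the rise of the TSSK genes was not tested.

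Of 9 pachytene markers, 2 rose and 5 fell, with a median log2 fold change of -0.27 and a summed level of 7392 to 8159 CPM in *Arid1a* WT and 5165 to 5406 CPM in *Arid1a* cKO. *Piwil1*, *Mlh3* and *Sycp2* fell by 3.88, 2.28 and 1.66 log2 units. Most of the drop in the sum came from *Piwil1*, from 1597 to 109 CPM, and *Sycp2*, from 1004 to 317 CPM, and 2 markers were not called. Of 8 leptotene and zygotene markers, 4 rose and 4 fell, where *Rec8* and *Dmc1* rose, the latter by 1.98, and *Spo11* was down at -2.68, and the sum was 759 to 865 CPM against 467 to 491 CPM. The weakest of these calls was that of *Meiob* (-0.19, edgeR, adjusted p = 0.0406), whose libraries overlapped between genotypes, and 3 or 4 leptotene and zygotene markers were called lower over the alternatives. Of 10 spermatogonia markers, 7 rose, among them *Sohlh2* (1.16) and *Kit* (0.98), and *Id4* fell by 2.65. The sum was 855 to 1032 CPM against 918 to 954 CPM. Most of that sum was *Dmrtb1*, which was not called, at 789 CPM in *Arid1a* WT and 797 CPM in *Arid1a* cKO. Beside these counts, 36.5% of all genes tested were called higher and 37.5% lower, so calls in both directions are also the background.

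Sertoli and Leydig markers fell, while most macrophage and blood markers rose, except that the haemoglobin gene tested fell. All 8 Sertoli markers fell, with a median of -1.55 and a sum of 117 to 139 CPM in *Arid1a* WT and 40.7 to 43.7 CPM in *Arid1a* cKO, and *Gata4* and *Wt1* fell by 1.59 and 1.54 beside *Inhbb*. Of 7 Leydig markers, 6 fell, with a median of -2.94, and the sum went from 58.7 to 62.8 CPM to 8.34 to 9 CPM, where *Insl3*, *Cyp17a1* and *Cyp11a1* had log2 fold changes of -3.65, -3.41 and -2.94. Of the 8 macrophage and blood markers tested, 6 rose and 1 fell, with a median of 1.55. *Adgre1* and *Lyz2* rose by 1.70 and 1.63. The sum was 5.4 to 6.64 CPM in *Arid1a* WT and 13.1 to 15.6 CPM in *Arid1a* cKO. The marker that fell was the haemoglobin gene *Hba-a1* (-2.12, edgeR, adjusted p = 3.23e-04), from 0.858 CPM in *Arid1a* WT to 0.191 CPM in *Arid1a* cKO. Beside these counts, 36.5% of all genes tested were higher and 37.5% lower. Somatic markers were present in the libraries of both genotypes, and the part of other cells in the values of the TSSK genes was not tested.

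**Figure D5:**
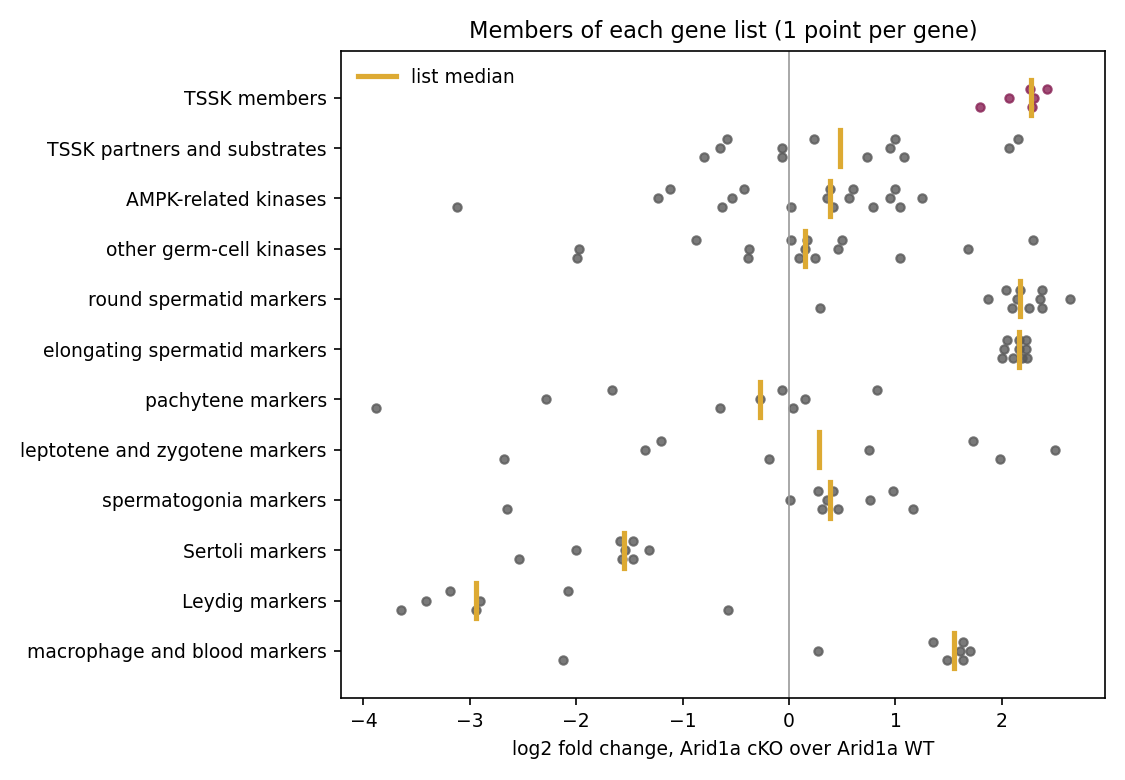
Log2 fold change (*Arid1a* cKO over *Arid1a* WT) of every tested gene in each list, one point per gene, with a bar at the list's median. The TSSK genes lie at 1.79 to 2.42, where the round and elongating spermatid markers have medians of 2.17 and 2.16, and the other lists have medians between -2.94 and 1.55.

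Genes with the most similar course over the libraries were searched among the 12997 genes whose average log2 CPM was at least 1, by the Euclidean distance of log2 CPM relative to the *Arid1a* WT mean over the 8 libraries. The nearest to *Tssk1* were *Dusp13* (distance 0.08), *Sh3d21* (0.09) and *Gnpda2* (0.09). *Tssk2* was nearest to *Iqcf3*, *Acsbg2* and *Txndc2*, at 0.09 each. For *Tssk3* they were *1700009N14Rik* (0.07), *Ropn1* (0.08) and *Dusp13* (0.09), so *Dusp13* was near to both *Tssk1* and *Tssk3*. *Klhl10* (0.07), *Pdzk1ip1* (0.08) and *Acsbg3* (0.09) lay nearest to *Tssk4*. *Tssk6* was nearest to *Csnk1g2* (0.09), *Togaram1* (0.10) and *Scamp2* (0.10). The distances were larger for *Tssk5*, whose *Arid1a* WT libraries varied more, with *Fer1l5* at 0.17, *Stk-ps2* at 0.20 and *Iqca1l* at 0.24. These distances describe 8 libraries of 2 genotypes and carry no test.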

How the data were processed

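RNA from Sta-Put purified pachytene spermatocytes was read as 4 *Arid1a* WT and 4 *Arid1a* cKO libraries. Transcripts were quantified by the authors in Salmon and brought to Entrez genes by tximport (mm10 annotation); the authors deposited estimated counts and TPM. Estimated counts were rounded, and genes with at least 10 counts summed over 8 libraries were tested in edgeR 4.0.16 under R 4.3.3 (TMM, quasi-likelihood test, one genotype term), with calls at p values of 0.05 or less after Benjamini-Hochberg adjustment. SE is the size of a log2 fold change over the square root of its F. Log2 CPM used a prior count of 2. For sums, shares and pairs, all 70 assignments of libraries were enumerated in a two-sided exact permutation test. Depth was 15850961 to 22044507 counts a library. The authors' table of log2 fold changes and p-values was not used. Coordinates, symbols (21036 of 21058 genes matched) and promoter sequences are from RefSeq GRCm38.p6. Transcripts are from GENCODE M21. Proteins were not used here.

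On simulated counts for 17326 genes (200 of them shifted 2-fold), recovery was 83.7% in edgeR and 80.6% in DESeq2 1.42.0, with 4.09% and 1.86% false calls. The simulation gave all genes one dispersion and changed few of them, where 74% of genes were called in the data. Its rates therefore check the code and do not describe this comparison. Alternatives were other scalings (no TMM, autosomal TMM, DESeq2 size factors), other filters (filterByExpr, 1 count in all, 10 counts in each library), DESeq2, a replicate block, length offsets, a threshold of 0.01, limma 3.58.1 on log2 TPM with pseudocounts of 1 and 0.1, and leaving out single libraries. The members, lists and tests were chosen with earlier results of these data known. Named genes were *Arid1a*, the members, the 12 partners, up to 3 called genes of each other list with the largest change (mean log2 CPM 1 or above), the nearest protein-coding genes and the 3 most similar genes. *Acr*, *Meiob*, *Prkaa2*, *Hba-a1* and *Dmrtb1* were named after their values were seen. The common runs, the RefSeq length of *Tssk1* and levels over GENCODE lengths were also chosen after the data were seen.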

Additional observations from a re-analysis of the deposited data

Results flagged for a closer look

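*Tssk6* in *Arid1a* cKO replicate 2 had 174 TPM, where the other *Arid1a* cKO libraries had 163 to 164 TPM. In CPM the *Arid1a* cKO libraries 1 to 4 had 150, 155, 145 and 146, which stand less far apart. By TPM, replicate 2 stands apart from its group (its gap to the nearest library is 0.936 of the range, past Dixon's critical value). Of 26 groups of 4 libraries examined, 1 was past that value, and chance gives about 1 in 20, or 1.3 groups. Leaving out each library in turn, that library included, gave log2 fold changes of *Tssk6* of 1.77 to 1.81.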

How the results depend on the processing

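Each of the 6 TSSK genes was called higher under all 20 alternatives, in which 31.6% to 40.4% of all genes tested were called higher, with log2 fold changes of 2.12 to 2.35 for *Tssk1*, 2.11 to 2.30 for *Tssk2*, 2.11 to 2.31 for *Tssk3*, 2.26 to 2.46 for *Tssk4*, 1.83 to 2.20 for *Tssk5* and 1.63 to 1.82 for *Tssk6*. The lowest value of each came from limma on log2(TPM + 1). With library size without TMM the median of all genes moved from -0.020 to -0.118, and 5 partners in place of 3 were called lower. On log2(TPM + 1) and on log2(TPM + 0.1), limma called 5 other germ-cell kinases higher in place of 8, and 4 spermatogonia markers higher and 2 lower in place of 7 and 1. The same limma fits called 7 AMPK-related kinases higher in place of 10, and length offsets 8. Of pachytene markers, 1 in place of 2 was called higher without TMM, with length offsets and with limma. With at least 10 counts in every library, 0 macrophage and blood markers were called lower in place of 1, since fewer genes were tested. With CPM in place of TPM, 4 member shares in place of 0 passed. Except for the change in genes tested, the cause was not tested. Over the RefSeq span, chosen after seeing the data, *Tssk1* was at 50.3 and 248 CPM per kilobase. These values divide counts of the longer transcript by the shorter length, so they are no level under the RefSeq model. The level of *Tssk4* over *Tssk6* was 0.769 in *Arid1a* WT and 1.19 in *Arid1a* cKO by TPM, and 0.586 and 0.909 by CPM per kilobase of the GENCODE transcripts, also chosen after seeing the data. Leaving out libraries one at a time, the summed TPM ratio was 4.15 to 4.28.

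The replicate numbers do not pair the samples: the correlations of same-numbered libraries' deviations from the genotype means were 0.162, 0.012, 0.085 and -0.137. With the replicate block all 6 members were called higher, and 6429 genes in place of 6435 were higher. Not every library correlated best with its own number.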
